A study of Homo sapiens with 47 samples.

Results

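Histone chaperones are the proteins that carry histones to and from DNA, and 10 of their genes were examined: NASP, ASF1A, ASF1B, CHAF1A, CHAF1B, HIRA, DAXX, ATRX, SUPT16H and SSRP1. They were chosen by gene symbol as replication-coupled and replication-independent chaperones, at a time when earlier results from this dataset were known, from the 58395 genes of the RNA-seq count table. All 10 were among the 28025 genes left by edgeR's filter on low counts. The study compared HEK293T cells, a human embryonic kidney line that carries the SV40 large T antigen, with an EAF1-mutant line made from it, by sequencing total RNA after removal of ribosomal RNA. Both groups had 3 libraries, and the labels give no treatment. In the mutant line both EAF1 alleles had been changed by CRISPR knock-in so that a short run of residues was replaced by alanines; EAF1 is a partner of the ELL elongation factors. The methods name 1 clonal line, so the mutation and the other properties of that clone cannot be told apart. Total counts were 59137210, 52541541 and 55637032 in the wild-type libraries, against 57198018, 53369621 and 66611451 in those of the mutant. Values per library are CPM, the share of a library's counts after its size was adjusted by edgeR's TMM method, scaled to a common total. Adjusted p values come from edgeR's quasi-likelihood test over all 28025 genes with Benjamini-Hochberg adjustment.

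New histones H3 and H4 are bound by NASP and ASF1 on their way to the nucleus, and the CAF-1 complex then places them on freshly copied DNA. Outside replication the HIRA complex deposits the variant H3.3 in active chromatin, while DAXX with the ATP-dependent remodeler ATRX does so in heterochromatin and at telomeres. FACT, a dimer of SUPT16H and SSRP1, takes H2A and H2B off and puts them back as polymerases pass.

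EAF1 itself, which a change of residues leaves countable, had means of 57.4 in wild-type and 18.8 CPM in mutant cells (SD 0.950 and 0.883, n = 3 each), so its level does not check the mutation. Its log2 fold change was -1.61 (edgeR adjusted p = 2.46e-18), beside a median of -1.44 over the 83 other tested genes within 5 Mb. These are RNA values: by western blot the paper reports little change in EAF1 protein in the mutant line. Of 11 genes listed as markers of HEK293T cells, 9 had a mean of at least 1 CPM in each group. The exceptions were PAX2, with 0.678 CPM in the wild type and 0.871 CPM in the mutant, and PAX8, with 0.0762 and 0.108 CPM. Of 10 markers of other cell types, 5 reached a mean of 1 CPM in the wild type and 4 in the mutant. The most abundant was VIL1, an intestinal actin-binding protein gene, with 26.4 and 29.8 CPM. Their summed level was 52.1, 52.8 and 51.2 CPM in the wild-type and 52.3, 53.1 and 54.3 CPM in the EAF1-mutant libraries. Single markers moved both ways within that sum: of the 5 tested, 2 passed as lower (adjusted p under 0.05) and 2 as higher. The collagen gene COL3A1 fell from 2.09 to 0.469 CPM (log2 fold change -2.18, edgeR adjusted p = 2.42e-09) and COL1A1 rose from 2.85 to 4.15 CPM (0.54, edgeR adjusted p = 5.66e-04). The leukocyte gene PTPRC, the T cell gene CD3E, the endothelial genes PECAM1 and CDH5 and the liver gene ALB had means of at most 0.144 CPM. The part of these markers in the results was not tested.

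Of the 10 histone chaperones, 4 were lower in EAF1-mutant cells at an adjusted p under 0.05 (ATRX, SUPT16H, SSRP1 and CHAF1B), beside 25.6% of all tested genes. Another 3 were higher (NASP, DAXX and CHAF1A), beside 25.9% of all tested genes. ASF1A, ASF1B and HIRA did not pass. Among the 5103 tested genes at least as abundant as the least abundant chaperone, a limit set with the values in view, 48.0% were lower and 23.5% higher. At the thresholds of the methods, which ask for an adjusted p under 0.01 together with a log2 fold change beyond 0.5 either way, ATRX and SUPT16H were lower, 2 of 10 beside 9.36% of all tested genes. No chaperone was higher past them in edgeR or in DESeq2, beside 11.0% of all genes in edgeR, and 3 were higher at an unadjusted p under 0.05. The libraries of the genotypes did not overlap for 7 of the 10 chaperones, the same 7 that passed, and for 57.3% of all tested genes. The median log2 fold change of the 10 was -0.04 (0.08 with library totals alone, 0.01 with upper-quartile factors), that of all tested genes 0.01. The counts of 4 and 3 of 10 lie near the background of equally abundant genes. With library totals in place of TMM the median of all genes moved to 0.13, the calls over all genes went from 7169 lower and 7250 higher to 5059 and 10240, and those of the chaperones from 4 and 3 to 3 and 5.

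**Figure D1:**
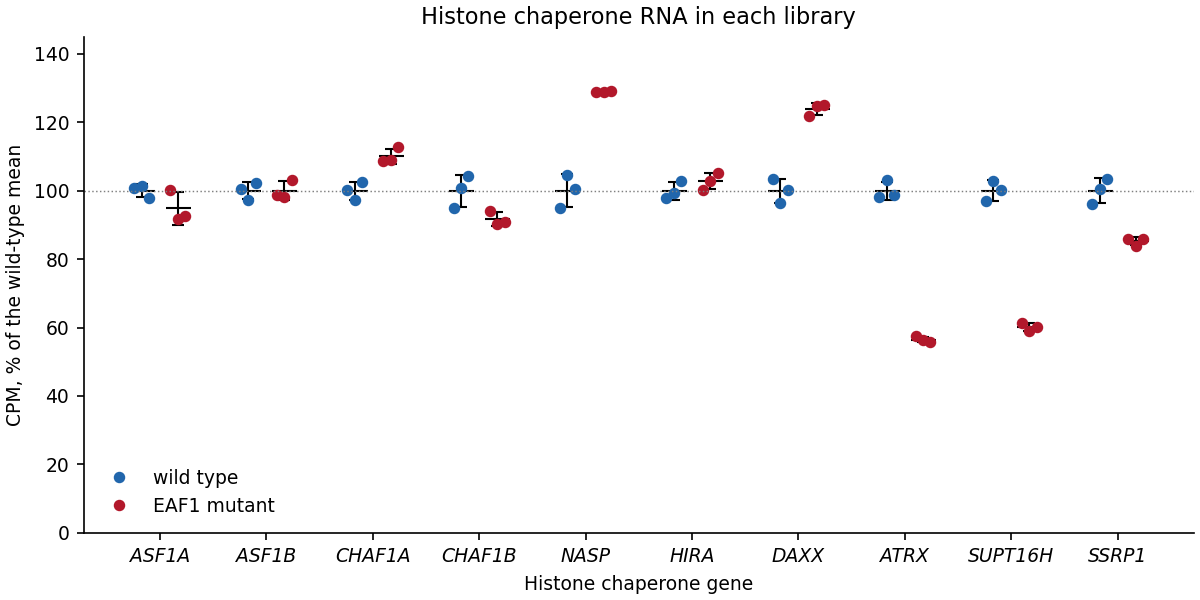
CPM of each histone chaperone in 3 wild-type (blue) and 3 EAF1-mutant (red) libraries, as a percentage of the gene's wild-type mean; points are libraries, and black bars the mean and SD of each group. The EAF1-mutant points of ATRX and SUPT16H lie far below the wild-type ones and those of NASP and DAXX above, while ASF1A, ASF1B and HIRA overlap, and with library totals alone ASF1A and ASF1B turn positive.

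Supply of H3 and H4 begins with NASP, which protects soluble H3 and H4 from degradation. NASP (ENSG00000132780, chromosome 1, 45583846 to 45618904 in GRCh38) had 330.5, 363.3 and 349.4 CPM in the wild-type libraries and 448.4, 448.5 and 448.9 CPM in the EAF1-mutant libraries. All EAF1-mutant libraries were above all wild-type libraries. NASP rose by 29.0%, a log2 fold change of 0.37 (standard error, SE, 0.037; edgeR adjusted p = 1.52e-08). A processed pseudogene of NASP, NASPP1, held 1.04 CPM in each group, little beside the gene itself.

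ASF1A and ASF1B are paralogs that hand H3 and H4 on, ASF1A more to HIRA and ASF1B mostly in dividing cells. ASF1A (ENSG00000111875, chromosome 6, 118894152 to 118909171) had 45.1, 45.4 and 43.9 CPM in the wild-type and 44.9, 41.1 and 41.5 CPM in the EAF1-mutant libraries. The first EAF1-mutant library lay within the wild-type range and the others below it. The log2 fold change was -0.08 (SE 0.044, edgeR adjusted p = 0.150). Without that library it was -0.12 (edgeR adjusted p = 0.0378; 0.0378 to 0.628 over all settings). ASF1B (ENSG00000105011, chromosome 19, 14119512 to 14136613) had 63.1, 61.2 and 64.2 CPM in the wild-type and 62.0, 61.7 and 64.8 CPM in the EAF1-mutant libraries. The last EAF1-mutant library lay just above the wild-type range and the others within it. The log2 fold change of ASF1B was -0.00045 (SE 0.040, edgeR adjusted p = 0.994). With library totals alone it was 0.11 (edgeR adjusted p = 0.0181; 0.0181 to 0.994 over all settings), which is -0.01 relative to the median of all genes, and that of ASF1A was 0.04, or -0.09 relative to that median. The exons of ASF1A share 205 bases with MCM9 on the opposite strand, and use of strand in the counting is not given in the sources used here.

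CAF-1 deposits H3 and H4 behind the replication fork, where its large subunit CHAF1A binds PCNA and its middle subunit CHAF1B binds the histones' carrier ASF1. CHAF1A (ENSG00000167670, chromosome 19, 4402640 to 4445018) had 105.7, 102.8 and 108.2 CPM in the wild-type and 114.7, 115.2 and 118.9 CPM in the EAF1-mutant libraries. CHAF1B (ENSG00000159259, chromosome 21, 36385392 to 36419015) had 49.3, 52.3 and 54.0 CPM in the wild-type and 48.7, 46.8 and 47.1 CPM in the EAF1-mutant libraries. Neither gene's groups overlapped, and the subunits moved in opposite directions, though for CHAF1B the lowest wild-type and the highest EAF1-mutant library lay close together. The log2 fold change of CHAF1A was 0.14 (SE 0.037, edgeR adjusted p = 0.00304), and that of CHAF1B was -0.13 (SE 0.043, edgeR adjusted p = 0.0174). Under library totals alone CHAF1A had 0.25 and CHAF1B -0.01 (edgeR adjusted p = 0.861; 0.00138 to 0.861 over all settings). CHAF1B also did not pass with upper-quartile factors (-0.08), without wild-type replicate 3 (-0.11), without EAF1-mutant replicate 2 (-0.12) or without EAF1-mutant replicate 3 (-0.12). Per kilobase of exons, CHAF1A RNA stood to CHAF1B RNA in a ratio of 2.53, 2.32 and 2.36 in wild-type and 2.78, 2.90 and 2.98 in EAF1-mutant libraries. The ratio, which scaling of the libraries does not touch, was higher in every EAF1-mutant library.

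The promoters of the CAF-1 subunits are shown because these genes encode partners in 1 complex and moved apart. RefSeq entries (GRCh38.p14) were matched for 8 of the 10 chaperones, and DAXX and ATRX were not matched. The 250 bases before the start site of CHAF1A (chr19:4402390-4402639, plus strand) and of CHAF1B (chr21:36385142-36385391, plus strand) are printed 5′ to 3′, with motif matches in capitals.
CHAF1A: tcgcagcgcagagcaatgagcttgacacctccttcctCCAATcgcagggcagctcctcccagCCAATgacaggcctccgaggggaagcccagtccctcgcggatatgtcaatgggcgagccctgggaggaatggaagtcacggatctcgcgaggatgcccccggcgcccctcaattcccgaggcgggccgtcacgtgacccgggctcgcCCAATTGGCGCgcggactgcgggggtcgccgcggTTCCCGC
CHAF1B: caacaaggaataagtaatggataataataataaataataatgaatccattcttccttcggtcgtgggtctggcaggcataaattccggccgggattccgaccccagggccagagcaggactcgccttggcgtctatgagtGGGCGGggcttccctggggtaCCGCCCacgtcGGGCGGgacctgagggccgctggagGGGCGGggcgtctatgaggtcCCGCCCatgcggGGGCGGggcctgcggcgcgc
Motifs were searched on both strands. The E2F-type motif was TTNNCGC with C or G at each N, and the CCAAT box was searched by the letters of its name. The GC box was GGGCGG and the ETS-type motif, typical of promoters of widely expressed genes, was CCGGAAG. The cell cycle homology region was TTTGAA. CHAF1A held 2 E2F-type matches and 4 CCAAT matches, and 1 run of capitals joins CCAAT, its reverse and an E2F-type match that share bases. CHAF1B held 6 GC boxes and none of the other motifs. The E2F-type motif stood in 2 of the 8 promoters (CHAF1A and HIRA) and in 10.9% of 35116 promoters of this length, CCAAT in 3 and 32.0%, and the GC box in 5 and 42.6%. TTTGAA stood in 1, that of ASF1B, and in 13.3% of all. A match is a stretch of letters, and binding was not measured here.

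Of 9 genes listed as partners of H3 and H4 supply and of CAF-1, 4 were lower and 4 higher (adjusted p under 0.05). Of all tested genes, 25.6% were lower and 25.9% higher, and of the abundant ones described above 48.0% and 23.5%. The median log2 fold change of the list was 0.08. With library totals alone 2 of its genes were lower and 5 higher, and without single libraries 2 to 4 were lower and 4 higher. Past the thresholds of the methods was IPO4 alone, the importin that carries H3 and H4 with ASF1, which fell from 140.0 ± 8.33 to 86.7 ± 1.40 CPM (SD, n = 3; log2 fold change -0.69, edgeR adjusted p = 2.04e-12). Past those thresholds 9.36% of all tested genes were lower and 11.0% higher. IPO4 lies on the long arm of chromosome 14, as SUPT16H does.

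HIRA is the histone-binding scaffold of the complex that deposits H3.3 in genes. HIRA (ENSG00000100084, chromosome 22, 19330698 to 19447450) had 61.8, 62.8 and 65.0 CPM in the wild-type and 63.4, 65.1 and 66.5 CPM in the EAF1-mutant libraries. The groups overlapped, with a log2 fold change of 0.04 (SE 0.039, edgeR adjusted p = 0.417). With library totals alone it was 0.16 (edgeR adjusted p = 0.00199; 0.00199 to 0.856 over all settings), or 0.03 relative to the median of all genes. Of the 4299 exon bases of HIRA, 66.5% are shared with C22orf39 on the same strand, so its counts are uncertain.

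The 3 other subunits and cofactors listed for the HIRA complex moved in both directions. CABIN1, which binds the complex and also inhibits calcineurin, rose from 156.9 ± 4.27 to 323.0 ± 17.5 CPM (SD, n = 3; log2 fold change 1.04, edgeR adjusted p = 8.34e-16). UBN2, the paralog of the H3.3-binding subunit UBN1, fell from 92.8 ± 5.45 to 58.8 ± 1.31 CPM (log2 fold change -0.66, edgeR adjusted p = 8.17e-12). UBN1 was lower at an adjusted p under 0.05, with -0.11, but had 0.01 with library totals alone. Without single libraries 1 or 2 of the list were lower. The list thus held 2 lower and 1 higher gene, around HIRA with 0.04. Of all tested genes, 25.6% were lower and 25.9% higher, and of the abundant ones described above 48.0% and 23.5%.

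DAXX binds H3.3 with H4 directly, and ATRX recruits it to repeats and telomeres. DAXX (ENSG00000204209, chromosome 6, 33318558 to 33323016) had 64.1, 59.8 and 62.2 CPM in the wild-type and 75.6, 77.4 and 77.5 CPM in the EAF1-mutant libraries. ATRX (ENSG00000085224, chromosome X, 77504880 to 77786233) had 158.5, 166.5 and 159.6 CPM in the wild-type and 92.7, 91.1 and 90.0 CPM in the EAF1-mutant libraries. The partners moved apart, without overlap between groups for either. DAXX rose by 23.8% (log2 fold change 0.31, SE 0.039, edgeR adjusted p = 5.55e-07). ATRX fell by 43.5% (log2 fold change -0.82, SE 0.037, edgeR adjusted p = 9.80e-15), the furthest of the 10 chaperones. Per kilobase of exons the ratio of ATRX to DAXX was 0.335, 0.378 and 0.348 in wild-type and 0.166, 0.160 and 0.158 in EAF1-mutant libraries, 45.6% of the wild-type mean. DAXX shares 14.3% of its exon bases with an overlapping same-strand gene (ENSG00000285064), which held 10.4 CPM in the wild type and 12.4 CPM in the mutant.

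All 5 genes listed as partners of ATRX and DAXX had log2 fold changes below 0, with a median of -0.11. Of the 28025 tested genes, 13655 were below 0. In the list 2 were lower at an adjusted p under 0.05 and 0 higher (edgeR, with 0 also at an unadjusted p under 0.05 and in DESeq2). Of all tested genes, 25.6% were lower and 25.9% higher, and of the abundant ones described above 48.0% and 23.5%. Single libraries mattered: leaving out one at a time gave 2 to 4 lower genes, 4 or 5 below 0 and medians from -0.24 to -0.10. On library totals alone, 2 of the 5 were below 0 and the median was 0.01, or -0.12 relative to all genes. The lowest was SETDB1, the H3K9 methyltransferase, with -0.37 (edgeR adjusted p = 1.81e-08). The highest was SP100, a PML body protein gene, with -0.02 at 0.854 CPM in wild-type cells (edgeR adjusted p = 0.961). PML, CBX5 and TRIM28 lay between them.

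SUPT16H and SSRP1 form FACT, in which SUPT16H holds H2A and H2B and SSRP1 carries the DNA-binding HMG box. SUPT16H (ENSG00000092201, chromosome 14, 21351476 to 21384019) had 458.2, 486.9 and 473.5 CPM in the wild-type and 289.7, 279.5 and 284.8 CPM in the EAF1-mutant libraries. SSRP1 (ENSG00000149136, chromosome 11, 57325986 to 57335892) had 399.0, 417.0 and 429.3 CPM in the wild-type and 356.4, 347.9 and 356.2 CPM in the EAF1-mutant libraries. Every EAF1-mutant library was below every wild-type library for both subunits. SUPT16H fell by 39.8% (log2 fold change -0.73, SE 0.036, edgeR adjusted p = 4.61e-14), and SSRP1 fell by 14.8% (log2 fold change -0.23, SE 0.036, edgeR adjusted p = 9.43e-06). Scaled by library totals alone, SSRP1 had -0.12 (edgeR adjusted p = 0.0103; 1.04e-10 to 0.0103 over all settings). The subunits fell by unequal amounts: per kilobase of exons the ratio of SUPT16H to SSRP1 was 1.05, 1.07 and 1.01 in wild-type and 0.746, 0.738 and 0.734 in EAF1-mutant libraries, 70.6% of the wild-type mean. A processed pseudogene, SUPT16HP1, held 2.17 CPM in the wild type and 1.52 CPM in the mutant. In bulk RNA, fewer cells in a state that holds much of an RNA and less of it per cell cannot be told apart.

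The promoters of the FACT subunits are shown because both genes fell. They are the 250 bases before the start sites of SUPT16H (chr14:21384020-21384269, minus strand) and SSRP1 (chr11:57335893-57336142, minus strand) in RefSeq (GRCh38.p14), with the same motifs in capitals.
SUPT16H: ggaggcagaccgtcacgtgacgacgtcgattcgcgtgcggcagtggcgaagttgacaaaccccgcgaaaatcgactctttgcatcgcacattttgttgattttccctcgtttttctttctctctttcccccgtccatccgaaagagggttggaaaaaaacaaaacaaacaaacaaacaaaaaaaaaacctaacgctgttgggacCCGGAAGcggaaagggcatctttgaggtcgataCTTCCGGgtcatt
SSRP1: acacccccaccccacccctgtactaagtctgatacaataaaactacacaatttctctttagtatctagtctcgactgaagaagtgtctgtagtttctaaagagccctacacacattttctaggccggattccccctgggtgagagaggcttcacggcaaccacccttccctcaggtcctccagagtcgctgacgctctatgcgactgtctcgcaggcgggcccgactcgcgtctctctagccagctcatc
SUPT16H held 2 ETS-type matches, letters found in 3 of the 8 chaperone promoters (SUPT16H, NASP and HIRA) and in 8.52% of all promoters. SSRP1 held none of the 5 motifs, so no motif searched was shared by the subunits in this window.

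Of 7 elongation factors that work with FACT, 4 were higher and 3 lower at an adjusted p under 0.05. Of all tested genes, 25.9% were higher and 25.6% lower, and of the abundant ones described above 23.5% and 48.0%. None of the 7 factors passed the thresholds of the methods in edgeR or DESeq2, beside 9.36% of all tested genes lower and 11.0% higher in edgeR. Of the lower genes 2 were at the limit (adjusted p = 0.0485 and 0.0498): with a replicate block 1 was lower, and without single libraries 1 to 3 were lower and 3 or 4 higher. SUPT5H, a subunit of the pausing and elongation factor DSIF, had the largest log2 fold change, 0.44 (edgeR adjusted p = 5.67e-10), and CTR9, the scaffold of the PAF1 complex, the smallest, -0.21 (edgeR adjusted p = 1.68e-04). The median was 0.10, and with library totals alone 4 were higher, 1 of them past those thresholds, and 0 lower. Of 10 other chaperones of H2A, H2B or H1, 8 were lower and 0 higher (edgeR; 0 also at an unadjusted p under 0.05 and in DESeq2), with a median of -0.30, beside 0.01 for all tested genes. Lower were 25.6% of all tested genes and 48.0% of the abundant ones described above. With library totals alone 6 were lower and 1 higher, with a median of -0.18. Of the 8 lower genes, ANP32E, IPO9 (-0.46) and VPS72 (-0.21) lie on the long arm of chromosome 1, where tested genes had a median of -0.30. Their neighbors within 5 Mb had medians of -0.28, -0.33 and -0.28, so VPS72 lay 0.07 above its neighbors. The other lower genes, NPM1, NPM3, NCL, NAP1L1 and SET, had neighbors with medians from 0.03 to 0.13. NPM1, the nucleolar chaperone nucleophosmin, fell from 2415 ± 58.1 to 1515 ± 45.6 CPM (SD, n = 3; log2 fold change -0.67, edgeR adjusted p = 1.44e-13). ANP32E, which removes H2A.Z from nucleosomes, fell from 222.4 ± 7.81 to 136.1 ± 6.73 CPM (log2 fold change -0.71, edgeR adjusted p = 7.29e-13). Among 4 genes that encode or deposit CENP-A, the histone H3 variant of centromeres, 1 was lower and 1 higher. Of all tested genes, 25.6% were lower and 25.9% higher. The higher gene of these 4, HJURP, did not pass with DESeq2, without wild-type replicate 1 or without EAF1-mutant replicate 3. The lower one, MIS18A, belongs to a complex that licenses that deposition, and it fell from 36.4 ± 0.522 to 24.6 ± 1.55 CPM (log2 fold change -0.56, edgeR adjusted p = 8.36e-10). With library totals alone its log2 fold change was -0.45, short of the limit of 0.5.

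**Figure D2:**
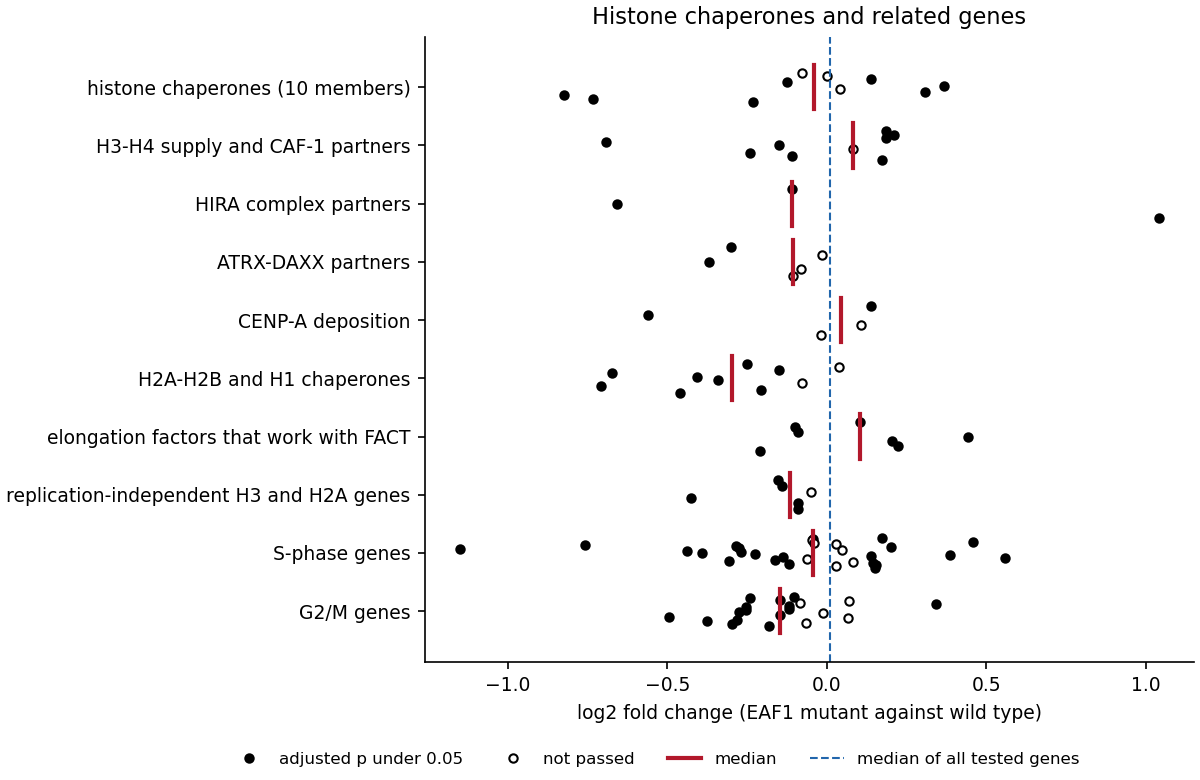
log2 fold change of each tested gene in the 10 histone chaperones and 9 related lists; filled points passed an adjusted p under 0.05 (edgeR), open points did not, red bars are list medians and the dashed line is the median of all tested genes, 0.01. The other chaperones of H2A, H2B or H1 lie mostly below 0 (median -0.30), and the chaperone list itself spreads from -0.82 to 0.37.

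Each chaperone was also set beside the other tested genes of its chromosome arm and within 5 Mb on either side. The 153 genes around SUPT16H had a median log2 fold change of -0.54, and 137 of them were below 0. The 62 genes around ATRX had a median of -0.58, with 51 below 0. Thus the chaperones that fell furthest lay among genes that were mostly lower too. SUPT16H lay 0.19 below its surroundings and 30 of its 153 neighbors had lower values, while ATRX lay 0.25 below and 16 of 62 had lower values. For ATRX this gap depended on which neighbors were taken: from the 18 that are protein-coding with at least 1 CPM (median -0.78) it differed by 0.04, and 7 of them had lower values. SUPT16H lay 0.20 below its 86 such neighbors. The 161 genes around NASP had a median of 0.35, which leaves a difference of 0.02 for NASP, and 122 of them were above 0. At other widths NASP lay further above its neighbors, by 0.10 within 1 Mb, 0.10 within 2 Mb and 0.15 within 10 Mb. The 310 genes around DAXX had a median of 0.19, a difference of 0.12, with 210 above 0. For DAXX even the direction of that difference depended on the width: it lay 0.26 below its neighbors within 1 Mb, and 0.02 and 0.21 above those within 2 and 10 Mb.

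The other chaperones had surroundings nearer 0. CHAF1A, with 0.14, equaled the median of its 341 neighbors, 0.14, but lay 0.07 above the medians within 1 Mb and within 2 Mb. ASF1B, on the same arm, had 369 neighbors with a median of 0.15 and lay 0.15 below them. The medians were 0.00077 around CHAF1B (109 genes), -0.08 around SSRP1 (83 genes), 0.04 around ASF1A (51 genes) and 0.08 around HIRA (232 genes). Of the 7 chaperones that passed, 6 had the sign of their surroundings within 5 Mb, as did 69.2% of the 14282 genes that passed and had neighbors. CHAF1B did not: the medians around it were 0.07 within 1 Mb, 0.08 within 2 Mb and 0.06 over its arm. Its 50 protein-coding neighbors of at least 1 CPM within 5 Mb, with -0.07, and those within 10 Mb, with -0.06, had its sign. So did its 72 neighbors of any type of at least 1 CPM within 5 Mb, with -0.06 in each EAF1-mutant library. Within 10 Mb and over whole arms the count was 5 of 7, as SSRP1 too then differed in sign from its surroundings (medians of 0.06 and 0.03). Medians within 5 Mb and over whole arms differed: the short arm of chromosome 1 had a median of 0.09 where the genes around NASP had 0.35, and the long arm of chromosome 14 had -0.17 where those around SUPT16H had -0.54.

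The surroundings of the 4 chaperones that moved most kept their sign in every EAF1-mutant library. Among neighbors of at least 1 CPM, a limit set with the values in view, the median log2 ratio to the wild-type mean was -0.52, -0.52 and -0.53 in the EAF1-mutant libraries around SUPT16H (121 genes). It was -0.60, -0.66 and -0.62 around ATRX (37 genes) and 0.33, 0.36 and 0.36 around NASP (110 genes). Around DAXX (225 genes) it was 0.14, 0.16 and 0.11, a wider spread for its size. The width of the window, varied with the values in view, mattered most for DAXX, whose neighbors had medians of 0.56 within 1 Mb, 0.29 within 2 Mb and 0.09 within 10 Mb. For SUPT16H the median ran from -0.60 within 1 Mb to -0.51 within 10 Mb, and for ATRX it was -0.54 within 1 Mb, -0.64 within 2 Mb and -0.50 within 10 Mb. DNA copy number was not measured here.

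**Figure D3:**
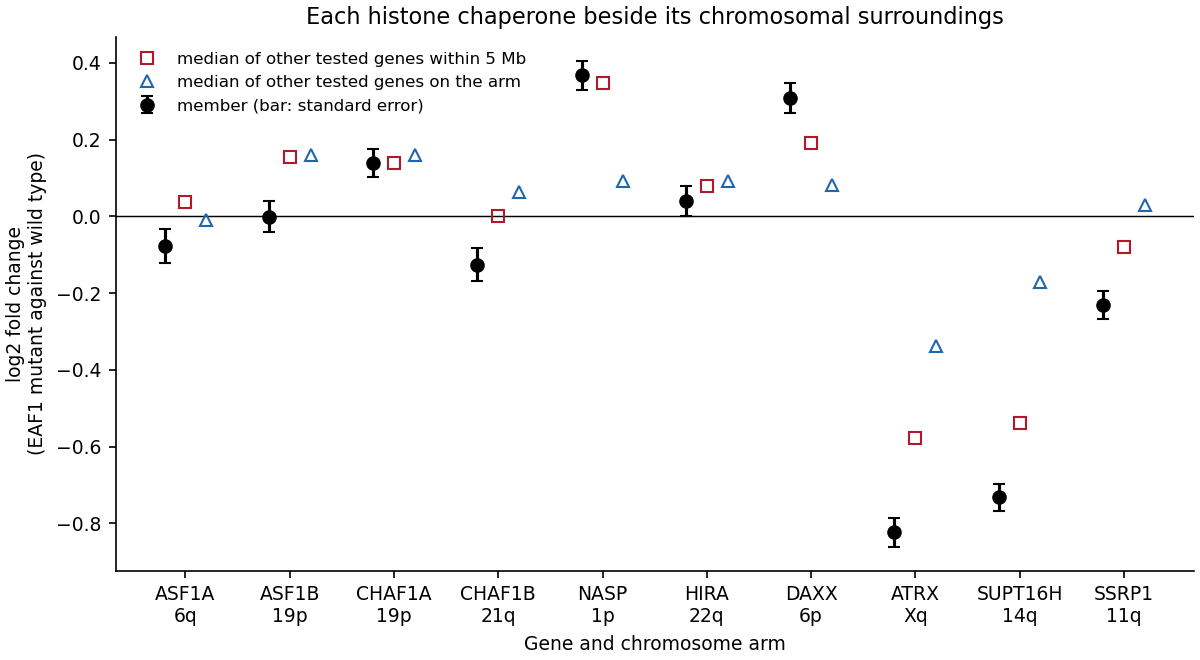
log2 fold change of each chaperone (black, with its SE) beside the median of the other tested genes within 5 Mb (red squares) and on its chromosome arm (blue triangles). NASP (0.37) and CHAF1A (0.14) sit close to the median of their neighbors at this width, though not at all others, ATRX (-0.82) and SUPT16H (-0.73) below neighbors that are themselves low; with library totals alone the values of ASF1A and ASF1B are above 0.

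**Figure D4:**
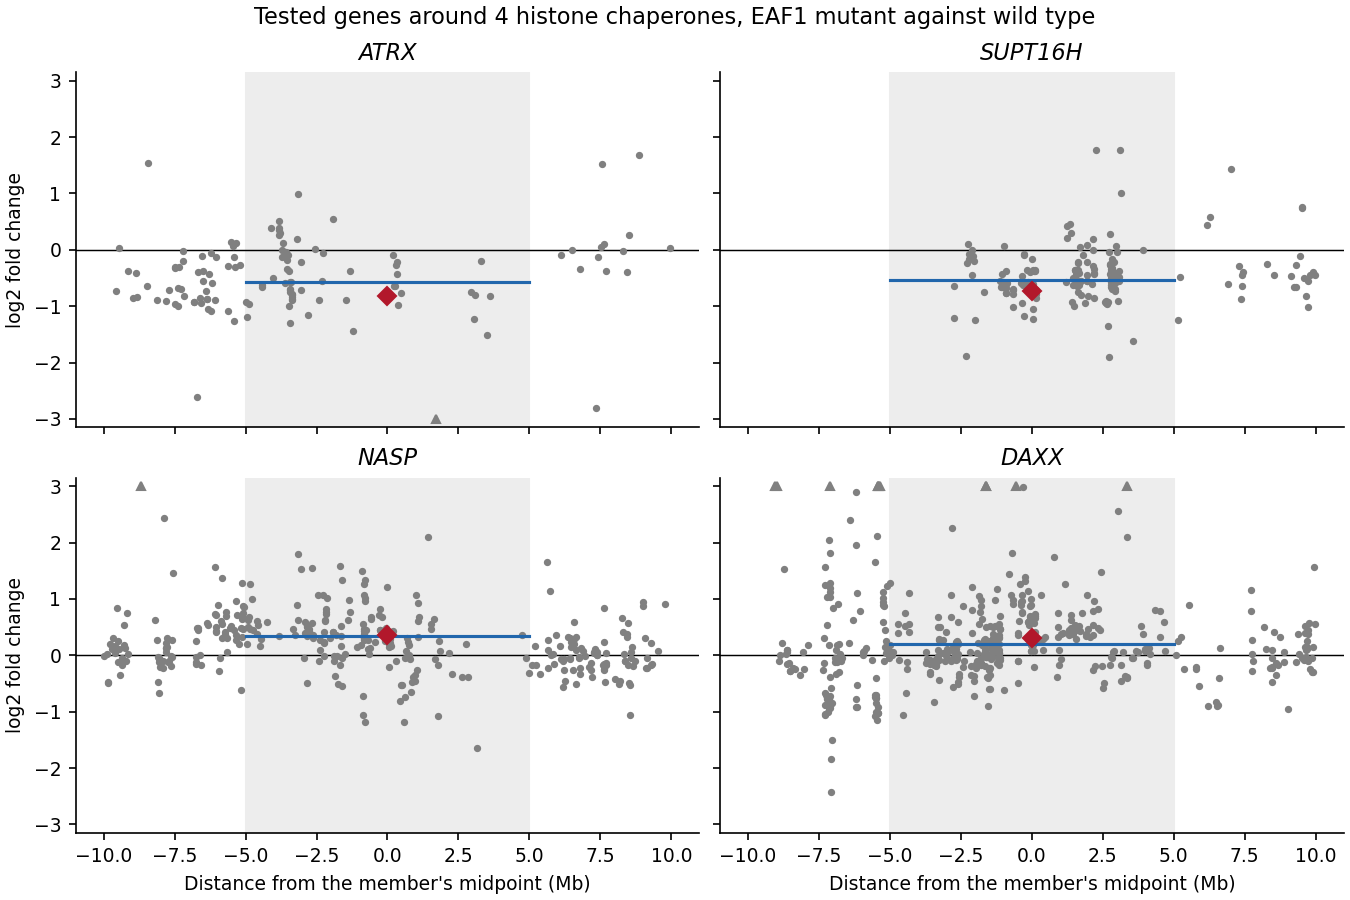
log2 fold change of every tested gene (grey) within 10 Mb of ATRX, SUPT16H, NASP and DAXX against distance from the chaperone's midpoint; the red diamond is the chaperone, the shaded band 5 Mb on either side and the blue line the median of the genes in it, and triangles mark values beyond the axis. Most genes around SUPT16H (137 of 153) and ATRX (51 of 62) lie below 0, most around NASP (122 of 161) and DAXX (210 of 310) above.

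The partners past the thresholds of the methods can be read the same way. The neighbors of UBN2 had a median of -0.64, close to the gene's own -0.66. IPO4 (-0.69) and ANP32E (-0.71) lay below neighbors with medians of -0.53 and -0.28. CABIN1 (1.04), NPM1 (-0.67) and MIS18A (-0.56) stood among genes with medians of 0.06, 0.13 and 0.02. These 3 partners therefore differed from the genes around them by 0.98, -0.80 and -0.58, more than any of the 10 chaperones did. In the lists without such a gene, SUPT5H (0.44) and SETDB1 (-0.37) had neighbors with medians of 0.24 and -0.26. Those of CTR9 (-0.21) and SP100 (-0.02) had medians of -0.07 and 0.13. Around PML (-0.30), CBX5 (-0.11) and TRIM28 (-0.08) the medians were -0.33, 0.13 and 0.41.

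Levels were compared between genes per kilobase of annotated exons. In wild-type cells SUPT16H was highest with 68.5 ± 2.08 CPM per kilobase (SD, n = 3), followed by SSRP1 with 65.5 ± 2.40, and the ranges of these FACT subunits overlapped. NASP followed with 41.9 ± 1.98 and ASF1B with 32.1 ± 0.785 CPM per kilobase. CHAF1A (24.4 ± 0.628), DAXX (20.1 ± 0.699), ASF1A (17.3 ± 0.321), HIRA (14.7 ± 0.382) and CHAF1B (10.2 ± 0.474) came next, and ATRX was lowest with 7.11 ± 0.191 CPM per kilobase. Apart from the FACT subunits, neighbors in this order did not overlap. The place of HIRA is uncertain, because 66.5% of its exon bases are shared with C22orf39 on the same strand. In EAF1-mutant cells SSRP1 (55.8 ± 0.765) and NASP (54.0 ± 0.0371) stood above SUPT16H (41.3 ± 0.738 CPM per kilobase), and the order of the other genes was as in wild-type cells. ASF1B RNA exceeded ASF1A RNA by a ratio of 1.85, 1.78 and 1.94 in wild-type and 1.83, 1.98 and 2.07 in EAF1-mutant libraries, which overlapped.

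Annotated exons include those of rare isoforms, which lengthen some of these genes more than others: the union is 22740 bases for ATRX and 8304 for NASP, their canonical transcripts 11165 and 3225. On the canonical length, a scale chosen after the data were seen, SSRP1 was highest in wild-type cells (146.6 ± 5.38 CPM per kilobase) with NASP (107.8 ± 5.11) and SUPT16H (106.7 ± 3.23) overlapping behind it, and CHAF1B (11.6 ± 0.541) was below ATRX (14.5 ± 0.388). In EAF1-mutant cells NASP was highest with 139.1 ± 0.0956 and ATRX lowest with 8.18 ± 0.123 CPM per kilobase. The order of the most and the least abundant chaperones thus rested on the length used, while ratios between genotypes did not.

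**Figure D5:**
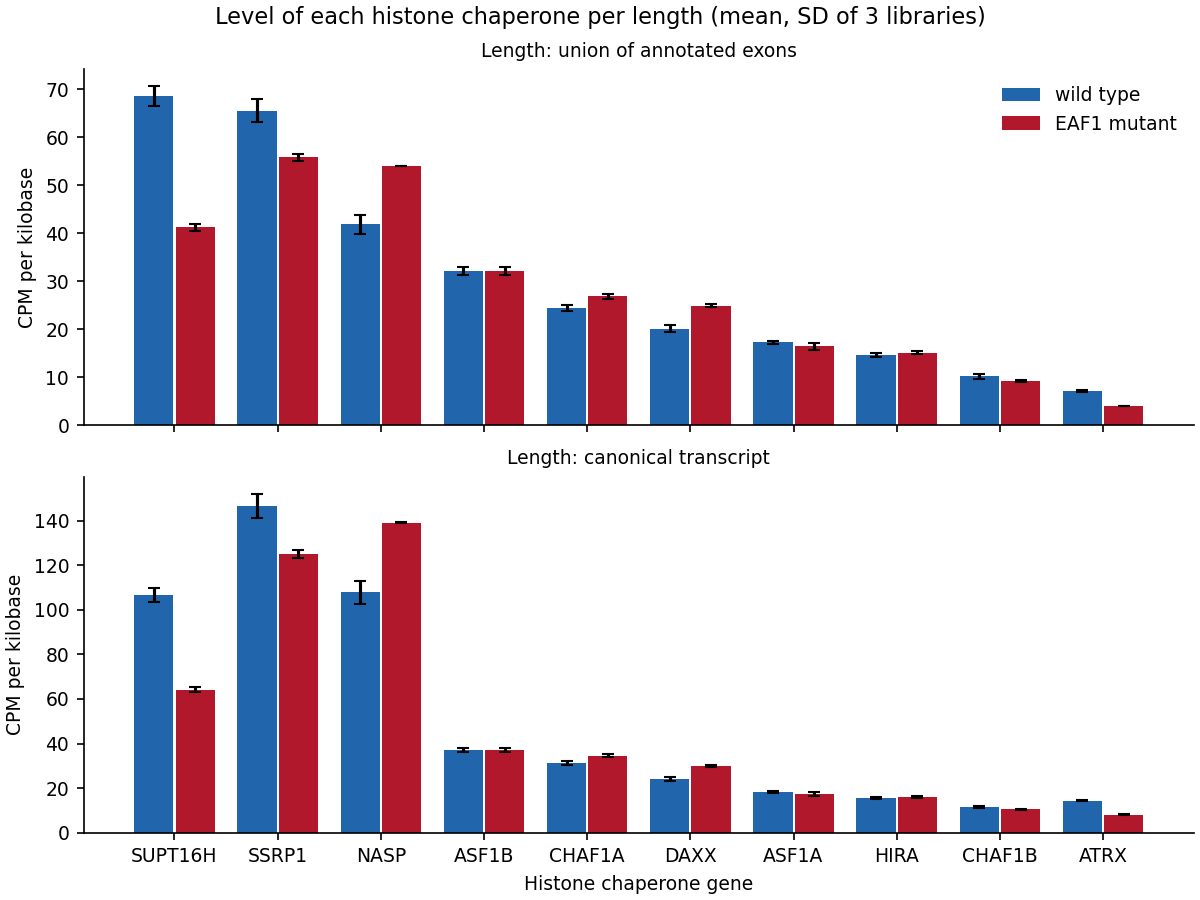
Level of each chaperone in wild-type (blue) and EAF1-mutant (red) cells in CPM per kilobase, as mean and SD of 3 libraries, on the union of annotated exons (top) and on the canonical transcript (bottom). The FACT subunits and NASP stand above the other 7 genes on both scales, and NASP is above SUPT16H in EAF1-mutant cells on both. The level of HIRA is uncertain, because 66.5% of its exon bases are shared with C22orf39.

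The RNA of the histones that these chaperones carry was set beside that of the chaperones. Of 64 replication-dependent histone genes taken by symbol, 56 were tested, 47 were lower and 7 higher (adjusted p under 0.05), beside 25.6% and 25.9% of all tested genes, with a median log2 fold change of -0.86. Their summed level was 12797, 11210 and 12715 CPM in the wild-type and 6373, 6380 and 6330 CPM in the EAF1-mutant libraries, a log2 ratio of means of -0.94. The 10 chaperones summed to 1735, 1818 and 1809 CPM in the wild-type and 1597, 1574 and 1596 CPM in the EAF1-mutant libraries, a log2 ratio of -0.17. On these values neither sum overlapped between genotypes. With library totals alone the chaperones summed to 1661, 1750 and 1742 CPM in the wild type and 1664, 1641 and 1656 CPM in the mutant, which overlapped, with a log2 ratio of -0.05; the histone sums stayed apart, at -0.83. Of the 6 replication-independent H3 and H2A genes, 5 were lower and 0 higher (edgeR; 0 also at an unadjusted p under 0.05 and in DESeq2), beside 48.0% lower among the abundant genes and 25.6% among all, with a median of -0.12. With a replicate block 3 of the 6 were lower, and without single libraries 3 to 5 were. Under library totals alone, 1 was lower and 3 of the 6 were below 0, while relative to all genes the median was -0.13. H2AFZ, the gene of H2A.Z, was the lowest with -0.43 (edgeR adjusted p = 2.82e-10) and H2AFX, the DNA damage variant, the highest with -0.05 (edgeR adjusted p = 0.370). H3F3A and H3F3B, the genes of the H3.3 that HIRA and DAXX deposit, were both lower, with -0.15 and -0.14, or -0.04 and -0.02 with library totals alone, where neither passed.

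Several chaperone genes are expressed most in S phase, so cell cycle genes were set beside them. Of 29 S-phase genes, 12 were lower and 9 higher (adjusted p under 0.05), beside 48.0% and 23.5% of the abundant genes and 25.6% and 25.9% of all, with a median of -0.04 that became 0.07 with library totals alone (9 lower and 13 higher) and 0.0050 with upper-quartile factors (10 and 10); MCM2 is also in the list of H3 and H4 supply. The lowest were GINS1, a subunit of the replicative helicase, with -1.15 and PCNA, the clamp that CAF-1 binds, with -0.76. Both lie on the short arm of chromosome 20, among neighbors with medians of -0.54 and -0.56. GINS1 lay 0.61 below its neighbors and PCNA 0.20 below. The highest were E2F1, the transcription factor of S-phase entry, with 0.56 and MCM5, another helicase subunit, with 0.46. Their neighbors had medians of 0.09 and 0.13. Of 20 G2/M genes, 14 were lower and 1 higher, beside 48.0% and 23.5% of the abundant genes, with a median of -0.15, or 8 and 4 with a median of -0.03 with library totals alone. They ran from the spindle motor gene KIF11 (-0.49) and the survivin gene BIRC5 (-0.38) to CCNB2 (0.07, not passed) and the proliferation marker MKI67 (0.34). The share of cells in each phase was not measured here, and its part in the levels of the chaperones was not tested.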

How the data were processed

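Total RNA of HEK293T cells (3 libraries) and of an EAF1-mutant HEK293T line (3 libraries) was depleted of ribosomal RNA and sequenced in pairs from stranded libraries. The authors trimmed the reads (Trim Galore in the methods; the submitters' processing notes name Trimmomatic 0.38), aligned them with HISAT2 to GRCh38, and used Rsubread to obtain raw counts per Ensembl gene, which were deposited. How strand and multi-mapped reads were handled is not stated in the sources, so genes that overlap or have copies are uncertain. The paper calls its replicates biological and reports at least 3 repeats of its experiments, except for 4 assays done 2 times (biotinylation-seq, 4C-seq, PRO-seq, ChIP-seq); RNA-seq is not among these. Separate cultures are not named for these libraries, so p values measure the spread between these libraries, which may be technical.

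Of 58395 identifiers, 57754 matched GENCODE v44, and the 641 others, with 2.81% of the counts, were tested but not named. The deposited counts were filtered with filterByExpr (28025 genes), normalized with TMM and tested by quasi-likelihood in edgeR 4.0.16 (R 4.3.3), with Benjamini-Hochberg adjustment over all tested genes. Python 3.11.15 with numpy 2.4.6 and pandas 2.3.3 made the summaries. The fit was tested on simulated counts. Library totals ran from 52541541 to 66611451, and single chaperones had 2286 to 31028 counts in a library. The biological coefficient of variation was 4.11%.

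The members, gene lists and the comparison with chromosome arms were chosen with earlier results of these data known. Named were all 10 members and EAF1; from the partner lists and the list of replication-independent histone genes, every gene past the thresholds of the methods, and in lists without such a gene those with the largest and smallest log2 fold change; from the S-phase and G2/M lists, the 2 largest and 2 smallest. Replication-dependent histone genes (H1-1 to H1-5, H2AC, H2BC, H3C and H4C with a number) were summarised only as a list. HJURP, UBN1, H3F3A, H3F3B, PML, CBX5, TRIM28, MCM2, COL1A1, COL3A1, IPO9, VPS72, NPM3, NCL, NAP1L1 and SET were named outside this rule, after their values were seen. Alternatives were DESeq2 1.42.0, library totals alone, upper-quartile factors, other filters and thresholds, a replicate block, omission of single libraries, and values relative to the surroundings. A table of ELL ChIP-seq signal, which holds none of the 10 genes, was not used here. One gene of a partner list is not reported here, and the counts leave it out.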

Additional observations from a re-analysis of the deposited data

How the results depend on the processing

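ATRX, SUPT16H, NASP, DAXX, SSRP1 and CHAF1A kept their direction and stayed past an adjusted p of 0.05 in all 13 fits (the one reported and 12 others), with log2 fold changes from -0.85 to -0.71, -0.77 to -0.62, 0.32 to 0.48, 0.27 to 0.42, -0.27 to -0.12 and 0.11 to 0.25. Library totals alone, which shift all genes, gave 5 higher chaperones and a median of 0.077, and put ASF1A at 0.038 and ASF1B at 0.11. Upper-quartile factors gave a median of 0.011 and ASF1B at 0.049, and a filter at a mean of 1 CPM gave ASF1B at 0.019. Without single libraries ASF1B ran from -0.030 to 0.012. A limit of 0.25 in place of 0.5 put 4 chaperones past the thresholds. The median was -0.11 after subtraction of the arm medians, which turned CHAF1A to -0.019, and -0.12 after subtraction of the medians within 5 Mb, an alternative chosen after the data were seen. Apart from scaling and subtraction, which move values by their construction, the cause was not tested. Without single libraries 3 to 5 chaperones were lower and 3 higher, 2 were past the thresholds of the methods, and the median ran from -0.06 to -0.02. Replicate numbers did not pair the samples (correlations of deviations -0.0054, -0.017 and 0.0097), and with a replicate block 4 chaperones were lower, 3 higher and 2 past the thresholds of the methods, with a median of -0.04. Of 140 values of single chaperones under alternatives, 111 kept direction and call or, relative to the surroundings, moved by less than the spread between libraries; 15 moved by more, 5 no longer passed, 2 newly passed and 7 changed sign. HIRA, counted among the 15, also changed sign, to -0.053 beside its arm and -0.040 within 5 Mb, which makes 9 changes of sign in all, and ASF1B, counted among the 7, also newly passed with library totals alone, which makes 3. The lowest count of a chaperone in a library was 2286, so depth limited none of these genes' detection.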
